A study of Homo sapiens and Mus musculus with 4 samples.

Results

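CCN1 (also CYR61), CCN2 (also CTGF), ANKRD1 and AMOTL2 are 4 genes widely used as readouts of the co-activator YAP1. Binding of TEAD transcription factors around them was described from 2 peak lists made by chromatin immunoprecipitation and sequencing (ChIP-seq). Members were the TEAD peaks whose midpoint lay within 100 kb of the start site of 1 of the 4 genes, 38 of the 22681 peaks listed for RD and 70 of the 47033 listed for YAP-ERMS. RD is an established human line of embryonal rhabdomyosarcoma, a soft tissue tumour with features of skeletal muscle. YAP-ERMS are mouse cells from tumours that YAP drives under 1 of 2 muscle lineage drivers, Myf5-Cre or the inducible Pax7-CreER. The labels do not say which driver applied, how many tumours were used or whether the cells are 1 clone. No treatment was named for either cell type, and no TEAD paralog was named for the antibody. RD peaks were called against an IgG library and YAP-ERMS peaks against input chromatin. Each of the 4 groups is 1 library, so no value below has a replicate error and the differences have no replicate check. The depth of the libraries is unknown.

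YAP1 has no DNA-binding domain of its own. When the Hippo kinases LATS1 and LATS2 are inactive, YAP1 and its paralog TAZ enter the nucleus and bind TEAD proteins, which recognise the M-CAT element with the core GGAATG. CCN1 and CCN2 encode secreted matrix proteins that bind integrins. ANKRD1 encodes a muscle ankyrin repeat protein found at the sarcomere and in the nucleus. AMOTL2 encodes a motin, a junctional scaffold that retains YAP1 outside the nucleus and promotes LATS activity, so it is itself a component of the Hippo pathway.

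In hg19 the start sites were taken at 86.046 Mb of chromosome 1 (CCN1), 132.273 Mb of chromosome 6 (CCN2), 92.681 Mb of chromosome 10 (ANKRD1) and 134.094 Mb of chromosome 3 (AMOTL2). In mm9 they were taken at 145.313 Mb of chromosome 3 (Ccn1), 24.315 Mb of chromosome 10 (Ccn2), 36.194 Mb of chromosome 19 (Ankrd1) and 102.619 Mb of chromosome 9 (Amotl2). These positions are known to 1 kb, so a distance under 1 kb does not place a peak on either side of a start. Upstream and downstream follow the direction of transcription. A window is not an assignment to a gene. In the human RefSeq order the nearest protein-coding neighbours were DDAH1 and ZNHIT6 for CCN1, MOXD1 and ENPP1 for CCN2, PCGF5 and RPP30 for ANKRD1, and ANAPC13 and RYK for AMOTL2.

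Human promoters of the set are shown because TEAD peaks lay at these starts in RD and because the promoters hold the M-CAT core. RefSeq promoters (build GRCh38.p14, minus strand) matched 3 of the 4 genes: CCN2, ANKRD1 and AMOTL2. The 250 bases before the start are printed 5′ to 3′, with each GGAATG or its reverse complement CATTCC in capitals. The peaks are in hg19 and were not converted, so the place of a motif within a peak is not given.
CCN2 at chr6:131951373-131951622: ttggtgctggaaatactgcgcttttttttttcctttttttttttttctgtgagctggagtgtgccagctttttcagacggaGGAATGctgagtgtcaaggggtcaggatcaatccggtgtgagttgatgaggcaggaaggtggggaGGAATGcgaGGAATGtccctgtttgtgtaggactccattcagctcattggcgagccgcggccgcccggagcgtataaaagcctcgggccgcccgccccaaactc
ANKRD1 at chr10:90921088-90921337: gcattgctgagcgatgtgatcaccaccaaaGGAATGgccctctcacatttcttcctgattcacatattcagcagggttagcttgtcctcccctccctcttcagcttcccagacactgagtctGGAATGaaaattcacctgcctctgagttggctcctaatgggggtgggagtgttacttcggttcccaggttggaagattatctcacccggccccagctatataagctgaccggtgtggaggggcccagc
AMOTL2, downstream start, at chr3:134374448-134374697: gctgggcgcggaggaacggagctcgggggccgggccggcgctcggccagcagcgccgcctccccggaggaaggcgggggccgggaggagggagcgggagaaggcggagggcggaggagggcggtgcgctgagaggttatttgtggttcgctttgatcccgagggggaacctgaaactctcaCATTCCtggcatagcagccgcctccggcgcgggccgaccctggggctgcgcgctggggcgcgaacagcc

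The CCN2 promoter held GGAATG 3 times, all on the coding strand, beginning 169, 104 and 95 bases before the start. The last pair was separated by 3 bases. Motifs were searched on both strands over 300 bases (250 before and 50 after the start), and 3 or more matches were present in 0.128% of the 35116 RefSeq promoters. All 3 CCN2 matches extended to AGGAATG, which contains the core, and 3 or more of these were present in 0.00854% of promoters. ANKRD1 held GGAATG 2 times, beginning 220 and 128 bases before its start, against 1.37% of promoters with 2 or more. ANKRD1 also held 1 match to the AP-1 motif TGANTCA, which was present in 7.71% of promoters, whereas CCN2 and AMOTL2 held 0.

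AMOTL2 has 2 starts in the RefSeq table, 970 bases apart. The downstream start held 1 match on the reverse strand, 69 bases before the start. That match extended on its sides to AGGAATG, present in 4.77% of promoters, and to GGAATGT, present in 3.46%. The upstream start of AMOTL2 held 0 matches to the core, which was present at least 1 time in 14.0% of promoters. Of 24 other genes of the YAP and TEAD pathway, 18 had a promoter in the table and 8 of these held the core at 1 or more of their starts. NUAK2, which encodes a kinase, held 2 matches. Genes with several starts had more sequence in which to match, and a match is a description of letters, not of a bound site.

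Every gene of the set had a TEAD peak within 2.5 kb of its start in both cell types. There were 9 such peaks in RD and 8 in YAP-ERMS, or 4.5 and 4.0 per 10 kb of these windows. Start sites of other genes in hg19 and mm9 were not at hand. The share of all starts with such a peak, and the usual density there, are therefore unknown. Between 2.5 and 25 kb the density was 0.444 per 10 kb in RD and 0.944 in YAP-ERMS, and between 25 and 100 kb it was 0.35 and 0.75. Peaks of the set were therefore densest at the starts, where the numbers of the 2 lists were close, and the YAP-ERMS list held more peaks farther out. Peaks were wider in YAP-ERMS, with a median of 2115.5 bp within 2.5 kb of a start against 574 bp in RD. Close numbers there thus do not mean that like lengths were covered. The 2 lists differ in species, control and possibly depth, so these differences were not tested. The score of a peak is the authors' own value. It was taken as a p-value on a negative log10 scale, multiplied by 10. Such a value depends on depth and control, so ranks by score are given within a list, and high-scoring or low-scoring refers to this value, not to a measured strength of binding.

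**Figure D1:**
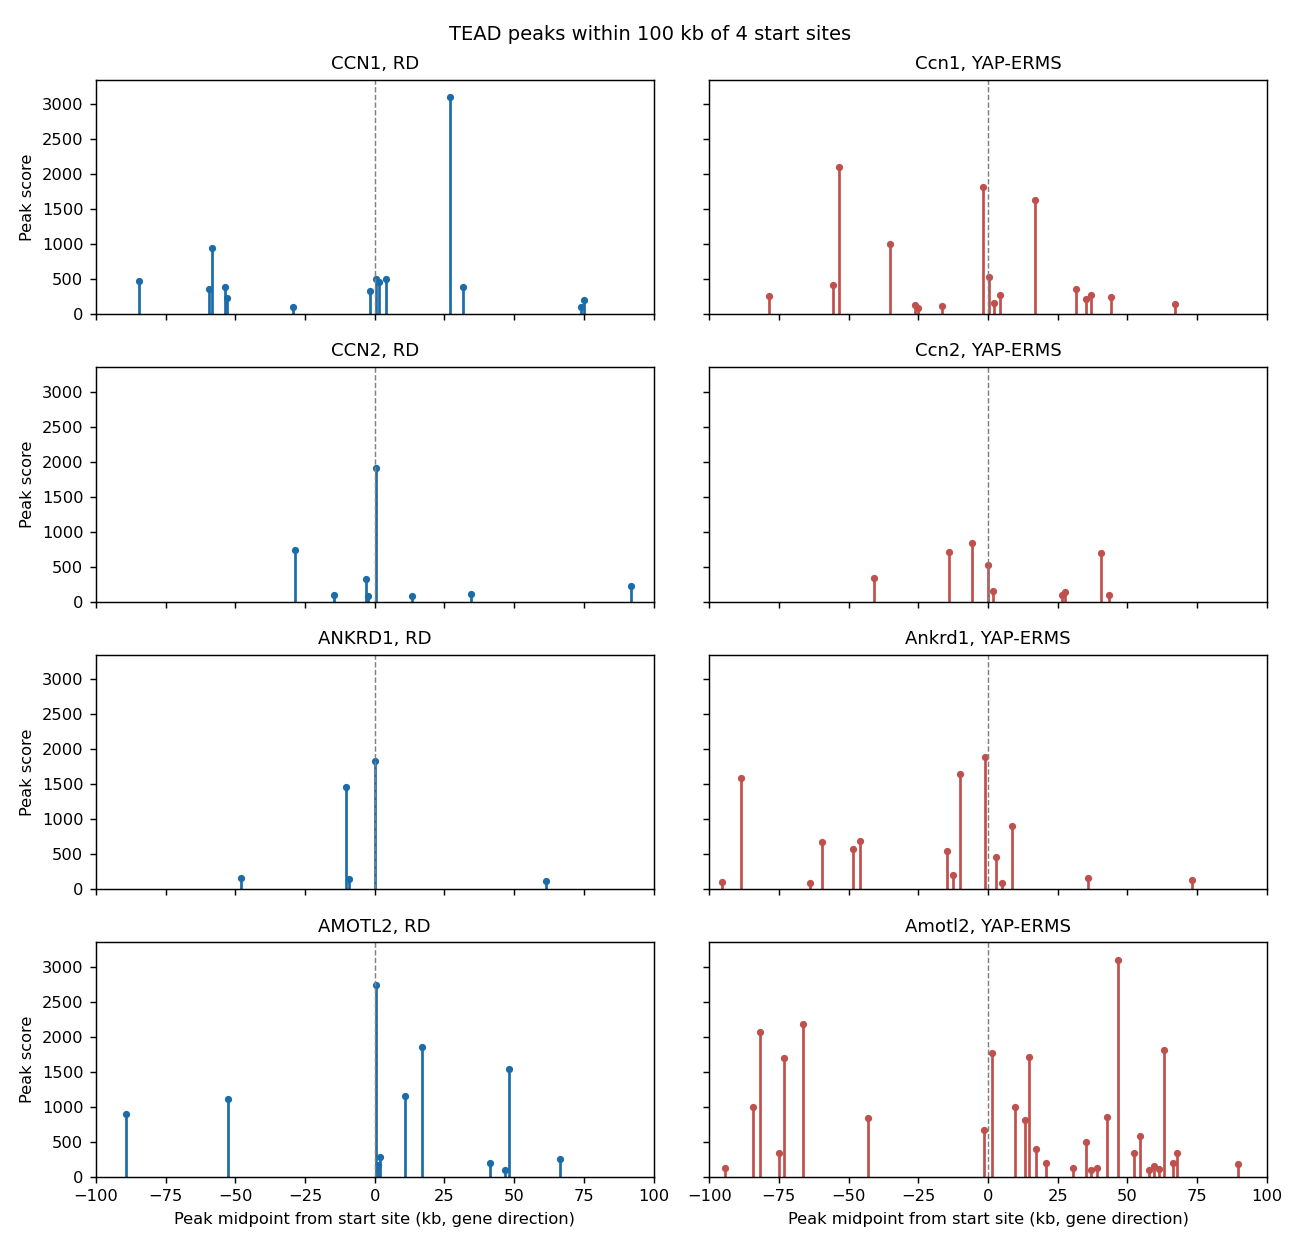
Each stem is 1 TEAD peak, placed by the distance of its midpoint from the start site in the direction of transcription (x axis, kb) with its score as height (y axis), for RD on the left and YAP-ERMS on the right. The highest stems stand 27.1 kb downstream of CCN1 in RD and 46.5 kb downstream of Amotl2 in YAP-ERMS, both with a score of 3100. This score is tied among 12 RD peaks and 97 YAP-ERMS peaks, so it does not order them.

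Among the secreted factors, CCN1 had its highest RD peak away from the gene. RD held 14 peaks in the CCN1 window, with a lowest score of 96.9, a median of 388 and a highest of 3100. The highest lay 27.1 kb downstream (chromosome 1, 86072578 to 86073622, hg19) and was 1045 bp wide. It was 1 of 12 RD peaks at exactly 3100, and 3 peaks of the list scored higher. The peaks at the start had much lower scores. They were 328 at 1.8 kb upstream, 498 at 0.51 kb downstream (chromosome 1, 86046176 to 86046853) and 455 at 1.3 kb downstream. A further peak of 498 followed at 4.0 kb downstream.

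The next highest RD peak of CCN1, with a score of 939, lay 58.2 kb upstream (chromosome 1, 85987046 to 85988505). It was 1460 bp wide, 2.45 times the median width of RD peaks of like score, and stood in a group of 4 peaks between 52.7 and 59.8 kb upstream. The lowest peaks of the window, with scores of 96.9 and 99.8, lay 29.2 kb upstream and 74.0 kb downstream. Peaks of CCN1 in RD thus formed separate groups at the start, far upstream and downstream, and the group at the start did not hold the highest score.

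In YAP-ERMS, Ccn1 had 17 peaks, with a lowest score of 81.7, a median of 271 and a highest of 2110. The highest lay 53.4 kb upstream (chromosome 3, 145365218 to 145367682, mm9), was 2465 bp wide and ranked 553 in the list. The next were 1819 at 1.9 kb upstream (chromosome 3, 145313930 to 145315927) and 1636 at 17.0 kb downstream (chromosome 3, 145295365 to 145296709). A score of 1004 was reached at 35.1 kb upstream. Around the start, 4 peaks stood side by side. Beside the peak of 1819, their scores were 527 over the start (chromosome 3, 145311437 to 145313669), 153 at 2.3 kb downstream and 273 at 4.4 kb downstream. The last of these was 2482 bp wide, 2.20 times the median at like score. In the mouse cells the start of Ccn1 thus carried 1 of its 3 highest peaks, at rank 891 of the list, while the best rank of a peak within 2.5 kb of CCN1 in RD was 3979.

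CCN2 showed the reverse order. RD held 8 peaks in the CCN2 window, with a lowest score of 84.6, a median of 171 and a highest of 1915. The highest was at the start, 0.37 kb downstream of the position used (chromosome 6, 132272325 to 132272944), 620 bp wide and at rank 197 of the list, in its top 0.869%. This is the start whose promoter holds the 3 M-CAT cores printed above. The other peaks were far lower. They scored 737 at 28.4 kb upstream (chromosome 6, 132301230 to 132301663), 319 at 3.0 kb upstream (chromosome 6, 132275840 to 132276206) and 225 at 91.9 kb downstream. The remaining 4 had scores from 84.6 to 116, among them 87.0 at 2.3 kb upstream (chromosome 6, 132275166 to 132275396).

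YAP-ERMS held 9 peaks in the Ccn2 window, with a lowest score of 96.7, a median of 346 and a highest of 838. It was the gene of the set with the lowest highest score in that list, and the highest peak was not at the start. It lay 5.7 kb upstream (chromosome 10, 24308760 to 24309894), at rank 4675. The next were 705 at 13.9 kb upstream (chromosome 10, 24300621 to 24301543) and 691 at 40.6 kb downstream (chromosome 10, 24354634 to 24356549). The peak over the start (chromosome 10, 24314120 to 24315836) had a score of 522 and ranked 9124, in the top 19.4% of the list. A low-scoring peak of 152 followed at 1.8 kb downstream (chromosome 10, 24316362 to 24317336). No peak of Ccn2 reached a score of 1000, and none was listed from 43.8 to 100 kb downstream. Just outside the window lay a peak of 198, at 101 kb upstream. The ranks come from lists of different length and control, so the contrast with CCN2 in RD was not tested.

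**Figure D2:**
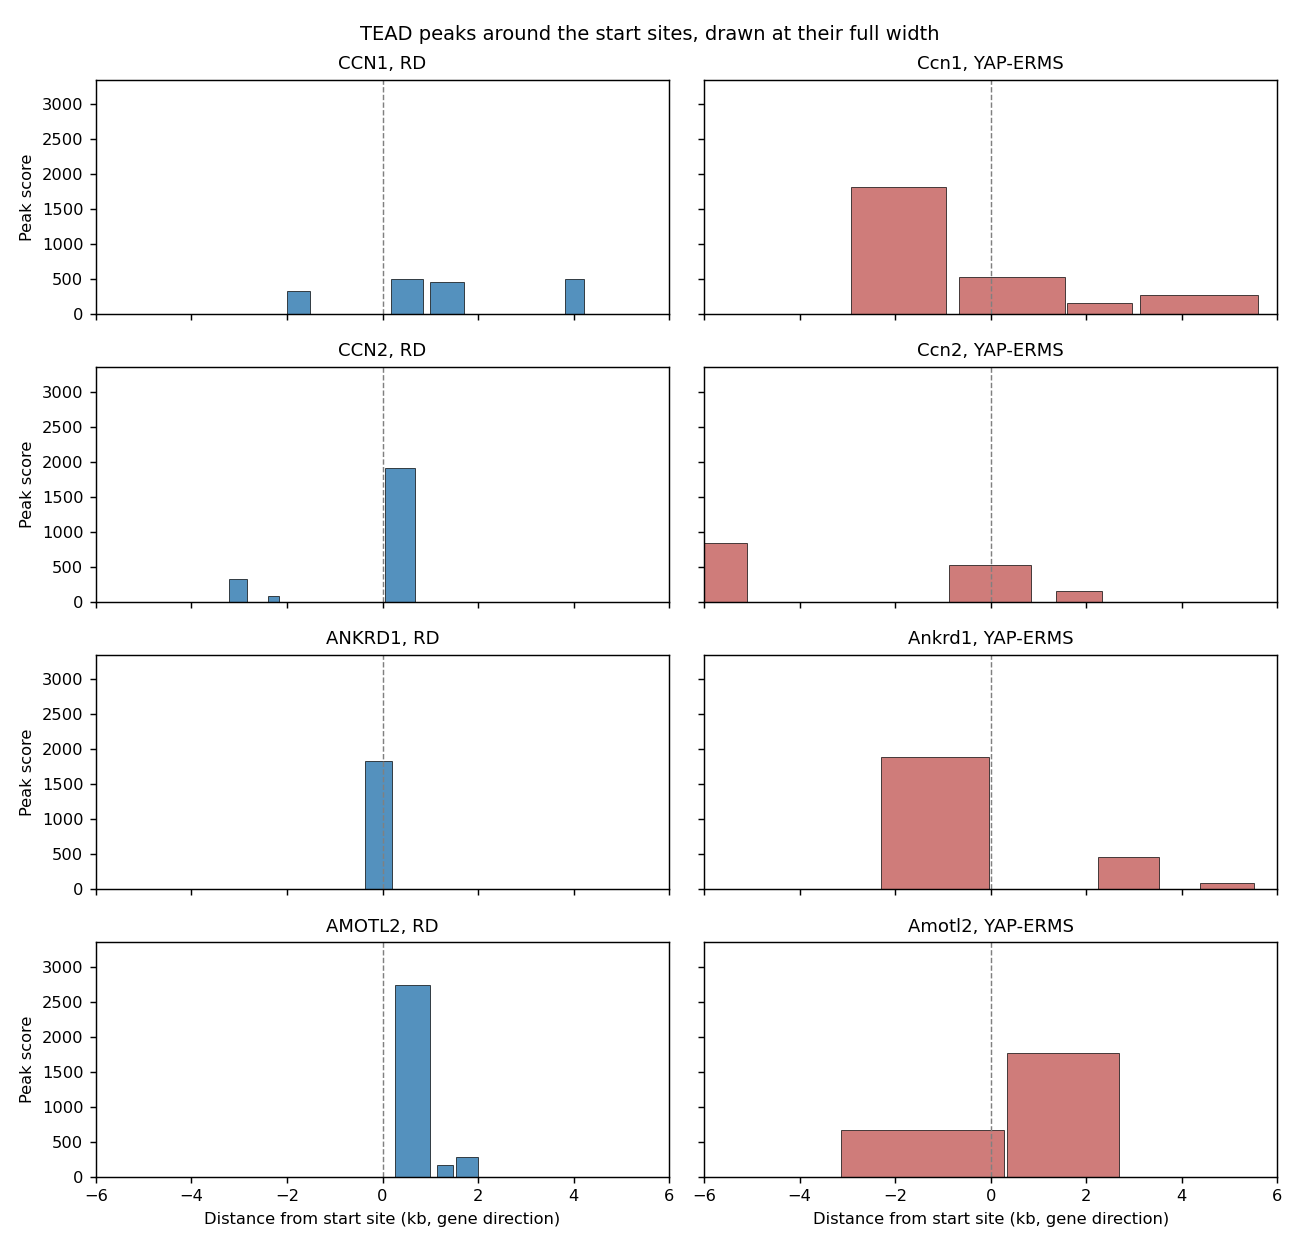
TEAD peaks within 6 kb of the start sites are drawn from their deposited start to end (x axis, kb from the start in the direction of transcription) with the score as height (y axis), for RD on the left and YAP-ERMS on the right. The peak at the start of CCN2 reaches 1915 in RD and that over the start of Ccn2 522 in YAP-ERMS. At CCN1 the peaks reach at most 498 in RD and 1819 in YAP-ERMS. Scores depend on depth and control, so heights were not tested between the lists.

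ANKRD1, the nuclear and sarcomeric muscle protein, had few peaks in RD, 2 of them with high scores. All 5 were low or high with nothing between: 122 at 61.4 kb downstream, 145 at 9.2 kb upstream, 166 at 47.8 kb upstream, 1456 at 10.1 kb upstream and 1838 at the start. The start peak (chromosome 10, 92680800 to 92681373) ranked 233 and the upstream one (chromosome 10, 92690704 to 92691583) ranked 503. The start peak was 574 bp wide and the upstream one 880 bp, although the latter had the lower score. The third by score was the peak 47.8 kb upstream (chromosome 10, 92728628 to 92729056). A 6th peak, with a score of 470, had its midpoint 101 kb upstream and fell just outside the window.

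In YAP-ERMS, Ankrd1 had 15 peaks, with a lowest score of 89.7, a median of 548 and a highest of 1885. The highest lay at the start (chromosome 19, 36194037 to 36196297), 1.2 kb upstream by its midpoint, and ranked 803. The next was 1645 at 9.9 kb upstream (chromosome 19, 36202986 to 36204832), at rank 1163. Both cell types thus had their 2 highest ANKRD1 peaks at the start and about 10 kb upstream of it. Whether these upstream regions, or those named next, correspond in sequence was not analysed here. An equal distance from the start is therefore not a match between the species. Another high-scoring peak, at 1594, lay 88.6 kb upstream (chromosome 19, 36281768 to 36283451), a distance at which RD listed none. Further peaks of 899 at 8.7 kb downstream, and of 684, 569 and 672 between 46.1 and 59.5 kb upstream, also had no RD peak of comparable rank at a like distance. The RD peak nearest to these distances upstream was that of 166 at 47.8 kb. Just inside the limit lay a peak of 108 at 95.2 kb upstream, and just outside it 1 of 786 at 108 kb upstream.

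AMOTL2, the Hippo scaffold, had the most high-scoring peaks of the set in both lists. In RD its 11 peaks had a lowest score of 103, a median of 904 and a highest of 2741, and 5 reached 1000 or more. The highest was at the start (chromosome 3, 134093014 to 134093738), 0.62 kb downstream of the position used, at rank 32 of the list. This peak covers 0.26 to 0.99 kb downstream of the position used, and the RefSeq table places the downstream start of AMOTL2, the one with the M-CAT core, 970 bases from the upstream start. Since the position used is rounded to 1 kb and does not name a transcript, the peak was not assigned to either start. Immediately beyond it, lower peaks of 176 (chromosome 3, 134092531 to 134092860) and 279 (chromosome 3, 134092010 to 134092457) lay 1.3 and 1.8 kb downstream.

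The other high-scoring RD peaks lay on both sides of AMOTL2. Downstream, the scores were 1160 at 10.9 kb, 1861 at 17.1 kb (chromosome 3, 134076589 to 134077252) and 1540 at 48.0 kb (chromosome 3, 134045678 to 134046266). Upstream, they were 1110 at 52.5 kb and 904 at 89.1 kb. None was listed between the start and 52.1 kb upstream. Low peaks of 103 at 46.8 kb and 200 at 41.4 kb downstream stood close to the peak of 1540.

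In YAP-ERMS, Amotl2 had 29 peaks, with a lowest score of 95.1, a median of 499 and a highest of 3100, and 8 reached 1000 or more. The highest lay 46.5 kb downstream (chromosome 9, 102664265 to 102666825) and was 2561 bp wide. It was 1 of 97 YAP-ERMS peaks at exactly 3100, which share rank 23 of the list. The next were 2176 at 66.5 kb upstream (chromosome 9, 102551297 to 102553775) and 2065 at 81.9 kb upstream (chromosome 9, 102536116 to 102538001). At the start, a peak of 675 (chromosome 9, 102615879 to 102619289) lay against 1 of 1768 (chromosome 9, 102619349 to 102621685), and together they reached from 3.1 kb upstream to 2.7 kb downstream. The first of these was the widest peak of the set, at 3411 bp or 2.47 times the median at like score.

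With gaps of at most 12.5 kb, 21 of the Amotl2 peaks formed a run from 3.1 kb upstream to 68.2 kb downstream, a length of 71.3 kb. Within it, scores of 1709 at 14.7 kb and 1815 at 63.1 kb stood beside low ones such as 95.1 at 57.9 kb. A second run of 6 peaks lay between 65.2 and 94.6 kb upstream and held 3 scores above 1000, including 1692 at 73.1 kb. In RD the run at the start of AMOTL2 had 5 peaks and ended 17.4 kb downstream. By the same rule a YAP-ERMS run of 11 peaks and 62.4 kb lay from 87.8 to 150 kb upstream of Ankrd1, in part outside the window. Runs over the whole lists were not counted, so how common such lengths are is not known. In both cell types the AMOTL2 peaks were mostly downstream of the start, 9 of 11 in RD and 21 of 29 in YAP-ERMS. At the limit of the window, a YAP-ERMS peak of 183 at 89.6 kb downstream was inside and 1 of 377 at 102 kb was outside.

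The number of peaks at each gene was set against 200 kb tiles of the same list that held at least 1 peak, the median being 2 peaks per tile in RD and 4 in YAP-ERMS. As many as the 14 peaks of CCN1 were found in 0.715% of RD tiles, as many as the 11 of AMOTL2 in 2.37%, as many as the 8 of CCN2 in 6.99% and as many as the 5 of ANKRD1 in 20.3%. In YAP-ERMS, as many as the 29 peaks of Amotl2 were found in 0.011% of tiles, which is 1 of 9131. As many as the 17 of Ccn1 were found in 1.47%, as many as the 15 of Ankrd1 in 2.92% and as many as the 9 of Ccn2 in 17.6%. Within 100 kb CCN1 was thus the densest of the 4 in RD and Amotl2 in YAP-ERMS. Both ranks turned with the window: within 50 kb RD held 8 peaks at AMOTL2 and 7 at CCN1, and within 200 kb YAP-ERMS held 35 at Ccn1 and 34 at Amotl2. Tiles are placed without regard to genes, whereas each window is centred on a start with a peak. Against windows centred on every peak of the list, the shares rose to 4.86% for CCN1, 11.2% for AMOTL2, 25% for CCN2 and 50.3% for ANKRD1 in RD. They rose to 0.0937% for Amotl2, 5.88% for Ccn1, 10.5% for Ankrd1 and 43.0% for Ccn2 in YAP-ERMS. By that measure the numbers at ANKRD1 in RD and Ccn2 in YAP-ERMS were near the middle of the list.

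**Figure D3:**
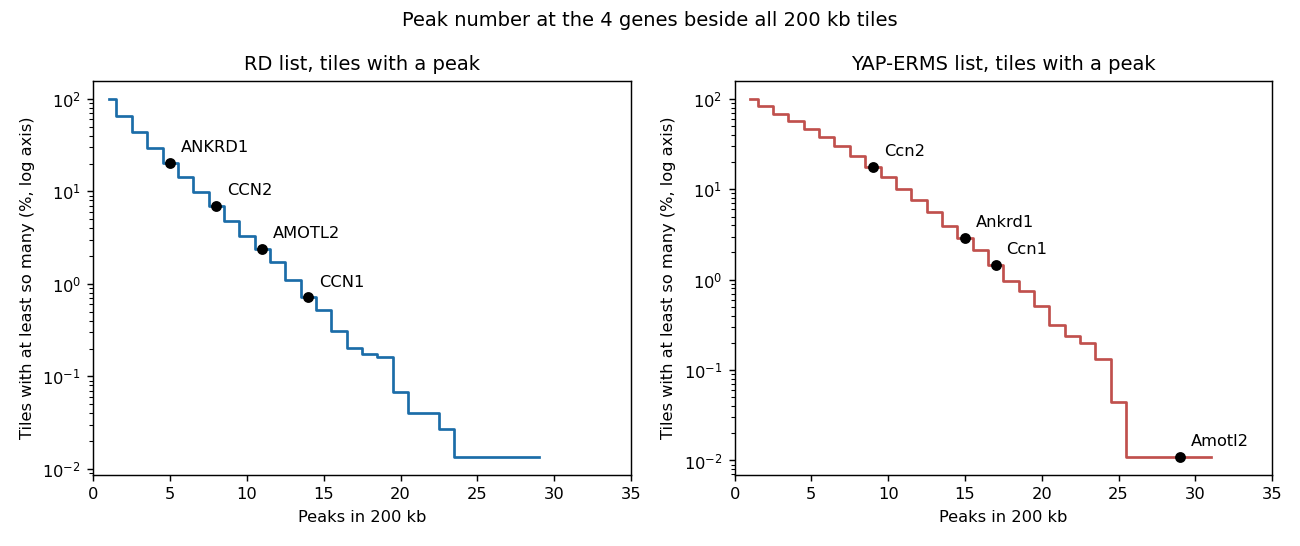
The line gives the share of 200 kb tiles with a peak (y axis, percent, log axis) that hold at least a given number of peaks (x axis), for the RD list on the left and the YAP-ERMS list on the right, and the points mark the 4 genes. CCN1 stands at 14 peaks and 0.715% in RD, and Amotl2 at 29 peaks and 0.011% in YAP-ERMS.

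By the highest score in a window, the 4 genes came in the same order as by the number of peaks, but with other distances between them. In RD a score as high as that of CCN1 was reached in 0.202% of tiles with a peak, as high as that of AMOTL2 in 0.432%, CCN2 in 2.52% and ANKRD1 in 2.97%. In YAP-ERMS the shares were 1.29% for Amotl2, 5.68% for Ccn1, 8.03% for Ankrd1 and 33.7% for Ccn2. By these tiles the highest score of ANKRD1 in RD was less common than its number of peaks, at 2.97% against 20.3%. For Ccn2 in YAP-ERMS the shares were 33.7% and 17.6%. Highest scores were not set against windows centred on every peak, which raised the shares by number.

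From RD to YAP-ERMS the number of peaks went from 14 to 17 at CCN1 (1.21 times) and from 8 to 9 at CCN2 (1.12 times). It went from 5 to 15 at ANKRD1 (3.0 times) and from 11 to 29 at AMOTL2 (2.64 times). The whole lists differed 2.07-fold and the 4 genes together 1.84-fold. In these windows the genes for the secreted factors were below the ratio of the lists and the other pair above it, but this split depended on the window and the score limit. Within 200 kb the ratio was 2.19 at CCN1 and 2.18 at CCN2, above that of the lists, and within 50 kb it was 1.75 at AMOTL2, below it. The spread of such ratios between replicates is unknown.

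Over the 4 genes, high scores were more frequent than in the lists. A score of 1000 or more was held by 9 of 38 RD members, 23.7% (Wilson 95% interval 13.0% to 39.2%), against 5.47% of all RD peaks. In YAP-ERMS it was held by 15 of 70, 21.4% (13.4% to 32.4%), against 7.38% of all peaks. AMOTL2 alone gave 5 of the 9 in RD and 8 of the 15 in YAP-ERMS, while CCN2 gave 1 and 0. The median score was 342 over the RD members and 373 over the YAP-ERMS members, against 189 and 205 over the lists. By gene, the RD median was 388 at CCN1 and 904 at AMOTL2, but 171 at CCN2 and 166 at ANKRD1, below that of the list. In YAP-ERMS the medians of the 4 genes, from 271 to 548, were all above that of the list. A neighbour within 10 kb was found for 68.4% of RD members (52.5% to 80.9%) and 87.1% of YAP-ERMS members (77.3% to 93.1%), against 46.1% and 56.1% of all peaks. In RD this held for 12 of 14 peaks at CCN1, 3 of 5 at ANKRD1 and 8 of 11 at AMOTL2. At CCN2 it held for 3 of 8, a lower share than in the list. In YAP-ERMS it held for 14 of 17 at Ccn1, 8 of 9 at Ccn2, 13 of 15 at Ankrd1 and 26 of 29 at Amotl2. Scores under 160 made up 23.7% of the RD members (13.0% to 39.2%), against 42.0% of the list. They made up 28.6% of the YAP-ERMS members (19.3% to 40.1%), an interval that includes the 39.1% of that list. In RD these low scores were 2 of 14 at CCN1, 4 of 8 at CCN2, 2 of 5 at ANKRD1 and 1 of 11 at AMOTL2. In YAP-ERMS they were 5 of 17, 4 of 9, 4 of 15 and 7 of 29, in the same order. The intervals given allow for counting error alone, and neighbouring peaks are not independent. The 4 genes are well-known targets and no sample of genes, so the shares describe these genes and no others.

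Peak width was described for the same members. Each peak was compared with the median width of peaks of like score in its own list. In YAP-ERMS the 8 peaks within 2.5 kb of a start were at a median 1.35 times that width, and 7 of 8 were wider than it, against 49.9% of all peaks. The peaks between 2.5 and 25 kb were at 1.03 times and those from 25 to 100 kb at 1.05 times, with 10 of 17 and 28 of 45 wider. Over all YAP-ERMS members 45 of 70 were wider, 64.3% (52.6% to 74.5%), so wider peaks were not confined to the starts. Starts of other genes were not compared. Examples are the peak of 3411 bp at the start of Amotl2, at 2.47 times, and that of 2233 bp over the start of Ccn1, at 1.73 times. In RD the 9 peaks at the starts were at 1.14 times, and 6 of 9 were wider, against 49.6% of all peaks. The values there differed by gene. The 3 peaks at CCN1 were 1.15, 1.36 and 1.49 times as wide as peaks of like score, whereas the high-scoring start peaks of CCN2, ANKRD1 and AMOTL2 were at 0.798, 0.739 and 0.933 times. The high-scoring RD peaks share the top score bin, which spans a wide range of scores, so their ratio is coarse.

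**Figure D4:**
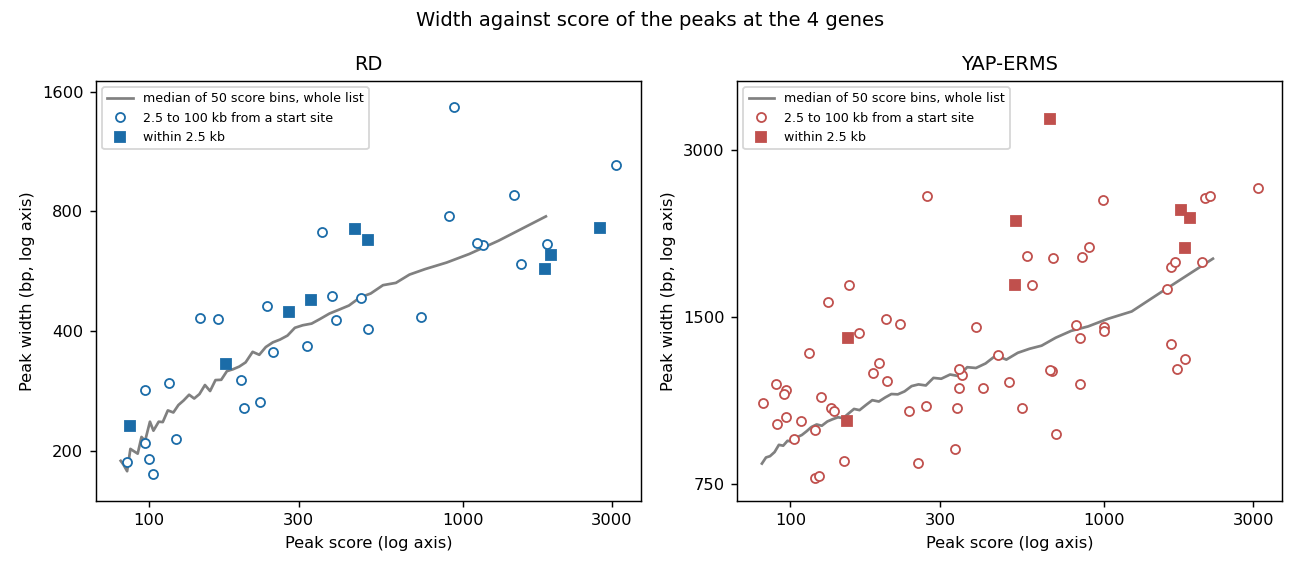
Width (y axis, bp, log axis) against score (x axis, log axis) of the peaks at the 4 genes, with filled squares for peaks within 2.5 kb of a start, open circles for the others, and a grey line for the median of 50 score bins of the whole list. In YAP-ERMS 7 of the 8 squares lie above their bin's median, while in RD the squares at the highest scores lie below theirs. The line ends at the median score of the top bin, so some points lie beyond it.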

How the data were processed

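TEAD ChIP-seq libraries of RD and YAP-ERMS cells were each set against 1 control library, IgG and input. The submitters' processing notes name Bowtie2 and the builds hg19 and mm9. The authors deposited 1 peak list per cell type, with peak names as MACS writes them and 1 score per peak. The lowest deposited score is 80, which on this scale equals the limit of 1e-08 in the lists' names. For versions, duplicate handling and read filters the sources used here give nothing. Positions were converted to 1-based, and the deposited start and end of each peak gave its midpoint and width in bases. Peaks were counted by midpoint within 100 kb of start sites given to 1 kb. Human gene directions were checked against the RefSeq promoter table for CCN2, ANKRD1 and AMOTL2, and those of CCN1 and the mouse genes are textbook knowledge.

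Background tiles of 200 kb covered the span of peaks on each numbered chromosome and X. Width at like score used 50 score bins with equal numbers of peaks. Window, tile and joining counts were tested on simulated data with known answers. Python 3.11.15, numpy 2.4.6, pandas 2.3.3, scipy 1.17.1 and matplotlib 3.10.9 were used. Named peaks were, per gene and list, the 3 highest scores, the peak nearest the start and all within 2.5 kb. Peaks beside the 100 kb limit were to be named too, but not all were, and those of CCN1 were left out in both lists. Other peaks were named after their values were seen. The genes, lists and rules were chosen with earlier results of these data known. Score limits, window sizes, overlap, joining of neighbours and other backgrounds were tried as alternatives.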

Additional observations from a re-analysis of the deposited data

How the results depend on the processing

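No paired analysis was possible because each group is 1 library. The count over the 4 genes, 38 in RD and 70 in YAP-ERMS, fell to 20 and 40 with only scores of 320 or more. In YAP-ERMS it was 46 within 50 kb and 121 within 200 kb. It stayed within 1.5 times of the reported count in RD within 50 kb (26) and 200 kb (45), and in both lists with scores of 160 or more (29 and 50), any overlap (38 and 70), neighbours within 1 kb joined (29 and 48) and starts moved by 0.5 kb (38 and 70). The order of genes depends on the window: within 50 kb, RD held 7 peaks at CCN1, 7 at CCN2, 4 at ANKRD1 and 8 at AMOTL2. Within 200 kb, YAP-ERMS held 35 at Ccn1, 24 at Ccn2, 28 at Ankrd1 and 34 at Amotl2. With neighbours joined, Amotl2 had 18 and Ccn1 11. At CCN2, YAP-ERMS had 2.5 times the RD number with only scores of 320 or more, where the lists differed 2.31-fold.

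Shares of the background are lower over all tiles, filled or not, as more tiles are counted: 0.361% (CCN1), 3.53% (CCN2), 10.2% (ANKRD1) and 1.2% (AMOTL2) in RD, and 1.04% (Ccn1), 12.5% (Ccn2) and 2.08% (Ankrd1) in YAP-ERMS. Around every peak they are 4.86%, 25%, 50.3% and 11.2% in RD, and 5.88%, 43.0%, 10.5% and 0.0937% (Amotl2) in YAP-ERMS, in the same order. On the gene's own chromosome they are 0.987% (CCN1) and 1.35% (AMOTL2) in RD, and 18.5% (Ccn2), 4.64% (Ankrd1) and 0% (Amotl2) in YAP-ERMS. The backgrounds around every peak and on the own chromosome, and the moved starts, were added after the data were seen. Depth is unknown, so weak peaks missed for lack of reads cannot be counted.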
